A study of Mus musculus with 24 samples.

Results

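Catalytic-dead MLL3 and MLL4 were compared with the wild-type enzymes in naive mouse embryonic stem cells, across all 16617 genes of a poly(A) 3' tag RNA sequencing table. The comparison set the group labelled MLL3CD_MLL4CD against the group labelled WT, each with 3 samples in the labels, 6 of the 24 in the study. The members were all genes of the table, taken as the difference between the group means of log2 CPM (the tags of a gene relative to all tags counted in its library), catalytic-dead minus wild type. Both groups were of the R1 cell line per the labels. Each genotype was 1 line, and how many clones stand behind the catalytic-dead line is not given in the labels, so the catalytic changes and other differences between the lines cannot be told apart. Naive cells are those before the withdrawal of LIF2i, the medium with leukaemia inhibitory factor and inhibitors of MEK and GSK3 that holds embryonic stem cells in the naive state. Other groups used for comparison were formative cells of the same lines, 63 h after that withdrawal, and naive cells of the genotypes MLL3KO_MLL4fl (called floxed here) and MLL3KO_MLL4KO (called knockout here). The floxed and knockout genotypes both lack MLL3 by their names, and no cell line is given for them in the labels.

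MLL3 (Kmt2c) and MLL4 (Kmt2d) are large histone methyltransferases of the COMPASS family that place monomethyl marks on lysine 4 of histone H3, mostly at enhancers. They work in a complex with WDR5, RBBP5, ASH2L, DPY30, the H3K27 demethylase UTX (Kdm6a), NCOA6 and PAXIP1. A catalytic-dead form is a protein whose methyltransferase activity is removed by changes in its SET domain, while a knockout removes the protein. The comparison therefore asks how RNA levels differ where the proteins may be present without that activity, and the knockout minus floxed comparison gives beside it the effect of losing MLL4 in cells that already lack MLL3.

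The deposited table gives 1 mean per group. Counts of single libraries were recovered from these means (see the processing description) for 98.84% of genes in naive wild-type and 76.04% in naive catalytic-dead cells. The naive wild-type mean held 2 libraries, of 14237630 (a) and 8839216 (b) counts. The naive catalytic-dead mean held 3, of 8945300 (a), 6572227 (b) and 6095600 (c) counts. Levels of a group are back-transformed means of log2 CPM that include a prior count of 2, so for low genes they lie above the CPM of single libraries. Differences are in log2 units, and a gene is called higher or lower where limma's Benjamini-Hochberg adjusted p over all tested genes was under 0.05. Genes of high abundance have no library values, and are given by their group levels with no test. For them an adjusted p "with means entered" comes from a model in which the group mean stood as 1 value with the weight of its libraries, an analysis chosen after the data had been seen. No spread between the catalytic-dead libraries enters that p.

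The 10 naive embryonic stem cell markers were present in both groups, from 9.54 to 692 CPM in wild-type and from 8.83 to 604 CPM in catalytic-dead cells. Their summed level was 3267 CPM in wild-type and 2788 CPM in catalytic-dead naive cells, and 705.7 CPM in formative wild-type cells. Of 15 fibroblast (feeder) markers 10 were in the table. Their summed CPM was 127.5 and 135.7 in the wild-type libraries and 90.7 to 99.7 in the catalytic-dead libraries. Without the intermediate filament gene Vim it was 12.3 and 15.1 against 48.7 to 57.4, and without Vim and the smooth muscle actin gene Acta2 it was 7.59 and 8.71 against 12.1 to 13.9. Acta2 was higher, and Vim and Thy1 were lower (Thy1 at an adjusted p of 0.0231, but 0.0882 without wild-type library a, 0.104 without b and 0.105 without catalytic-dead library c). Col1a1, a defining fibroblast collagen, stood at 0.814 and 2.25 CPM (adjusted p = 0.135). Thy1 was at 0 in catalytic-dead library c. Whether a change in feeder cells bears on the results was not tested.

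The targeted genes differed little in level. Kmt2d (chromosome 15, 98831669 to 98871204 of GRCm38) had 29.99 and 27.6 CPM in wild-type libraries a and b and 28.6, 27.5 and 26.1 CPM in catalytic-dead libraries a, b and c. The groups overlap, and the difference was -0.07 (SE 0.20, limma adjusted p = 0.869). Kmt2c (chromosome 5, 25271798 to 25498783) stood at 48.8 CPM in wild-type cells, with 62.6 and 37.7 CPM in its libraries, and at 67.4 CPM in catalytic-dead cells, where no library value was recovered. Its difference of 0.47 had an adjusted p of 0.316 with means entered. Tags read only the 3' end of an RNA and carry no information on the catalytic changes, so these values do not check the genotype.

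Across the table, 12557 genes had library values in both groups and passed the filter on low counts. Of these 818 were higher (6.51%) and 628 were lower (5.0%) in catalytic-dead cells. The median size was 1.14 among the higher and -1.35 among the lower genes, and 527 and 473 of them differed by at least 1 log2. The median difference of all 16617 genes was 0.115. Scaled by median-of-ratios size factors, which shift this comparison by -0.15, 545 genes were higher and 861 lower, so the share of called genes that were higher was 56.6% on CPM and 38.8% on size factors. The libraries of the 2 groups did not overlap for 816 of the higher and 625 of the lower genes, against 39.6% of all tested genes. Without wild-type library a, the deeper of the pair, 244 genes were higher and 325 lower. Without wild-type library b the counts were 561 and 577. The counts fell to 470 lower genes without catalytic-dead library a, 416 without b and 406 without c. Of the called genes 91.8% of the higher and 83.1% of the lower were protein-coding, against 75% of the tested genes that were not called.

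**Figure D1:**
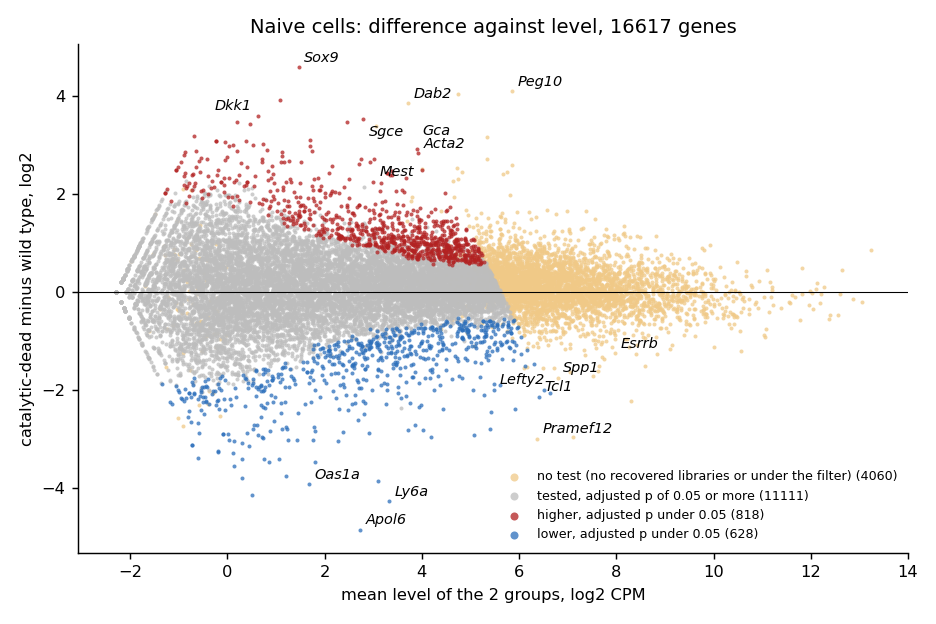
Difference between naive catalytic-dead and wild-type cells (y axis, log2) against the mean level of the 2 groups (x axis, log2 CPM) for 16617 genes, with 818 higher genes in red, 628 lower in blue, tested genes not called in grey and the 4060 genes with no test in yellow. Genes with no test lie at the abundant end, and Sox9 and Apol6 mark the largest differences named among tested genes.

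The genes of chromosome 6 stood apart from the rest of the genome, which touches several results below. The median difference of the 493 chromosome 6 genes of at least 5 CPM was 0.615, against 0.0996 for the 9631 such genes of all other chromosomes, and 87.4% of the chromosome 6 genes were higher. In formative cells the medians of the same comparison were 0.554 and -0.0046, and in naive knockout minus floxed cells chromosome 6 stood at 0.0663. The shift ran over the whole chromosome: every 10 Mb window had a median between 0.427 and 1.25, with the highest values in the first 2 windows (1.25 over 16 genes and 1.04 over 11 genes). Within libraries, the median of 110 chromosome 6 genes relative to 2616 genes measured in every library was 0.214 to 0.389 in the 3 naive and 0.29 to 0.393 in the 3 formative catalytic-dead libraries. It was -0.179 to 0.0356 in the 17 other libraries, and the 2 ranges do not overlap. Of 637 tested chromosome 6 genes 112 were higher (17.6%) and 16 lower. A change in the number of chromosome 6 copies was not tested. Without chromosome 6, an alternative chosen after the data had been seen, 692 of 11920 genes were higher and 600 lower. Chromosome 8 lay on the other side. Its 548 genes of at least 5 CPM had a naive median of -0.0919, and 42.3% of them were higher. Relative to all genes, chromosome 8 stood at 0.232 and 0.189 in the naive wild-type libraries and at 0.106 or below in every other library. Among genes named below, Acta1, Zmat4, Tubb3, Sox1 and Col4a1 lie on chromosome 8, and its part in their differences was not tested.

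**Figure D2:**
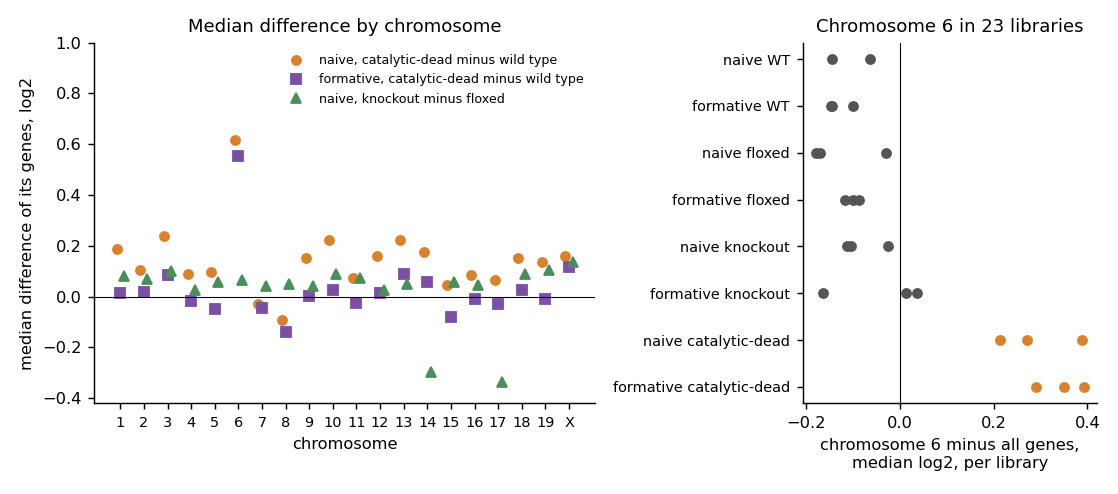
Left, the median difference (y axis, log2) of the genes of at least 5 CPM on each chromosome (x axis) in 3 comparisons; right, the median of chromosome 6 genes minus that of all genes in each of 23 libraries (x axis, log2; 1 point per library). Chromosome 6 lies at 0.615 and 0.554 in the catalytic-dead comparisons, and the 6 catalytic-dead libraries lie above the 17 others.

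The largest tested increase was in Sox9, a transcription factor of stem and progenitor cells in several epithelia (chromosome 11, 112782224 to 112787760). It had 0.281 and 0.453 CPM in the wild-type libraries and 14.0, 14.8 and 11.5 CPM in the catalytic-dead libraries. Every catalytic-dead library lay far above both wild-type libraries, and the difference was 4.58 (SE 0.56, limma adjusted p = 2.47e-06). Dkk1, a secreted inhibitor of Wnt signalling, had 0.421 and 0.113 CPM in wild-type and 5.59, 5.17 and 4.76 CPM in catalytic-dead cells, a difference of 3.59 (SE 0.68, adjusted p = 5.39e-04). Gca, which encodes the calcium-binding protein grancalcin, had 4.07 and 6.67 CPM in wild-type and 40.1, 40.6 and 41.0 CPM in catalytic-dead cells, a difference of 2.91 (SE 0.26, adjusted p = 2.94e-09). The transcription factor Runx3 had 3.09 and 2.60 CPM against 19.6, 16.7 and 20.7 CPM (2.65, SE 0.34, adjusted p = 2.30e-06). None of these 4 genes lies on chromosome 6. Their groups do not overlap, which was a condition for naming them.

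Increases were also seen in 2 actin genes, an annexin gene and a keratin gene. The smooth muscle actin gene Acta2 had 4.71 and 6.34 CPM in wild-type and 35.9, 43.5 and 41.5 CPM in catalytic-dead cells (2.83, SE 0.25, limma adjusted p = 2.73e-08). The skeletal actin gene Acta1 stood at 1.11 and 9.54 CPM (3.10, adjusted p = 8.78e-05). Anxa1, a membrane-binding annexin, stood at 2.64 and 17.3 CPM (2.72, adjusted p = 1.01e-04). The simple-epithelium keratin Krt18 had 5.13 and 5.996 CPM against 26.2, 29.4 and 30.2 CPM (2.32, adjusted p = 3.93e-06). In each of these genes the lowest catalytic-dead library exceeded the highest wild-type library, which was a condition for naming all of them but Krt18. The remaining genes among the 15 largest increases were Arntl2, Sgce and Mest on chromosome 6, and Sh3bgrl, Rgs11, Slc43a3, Meltf and Frk elsewhere, with differences down to 2.64. Without wild-type library a the calls of Meltf (adjusted p = 0.0508) and Frk (adjusted p = 0.101) were lost.

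**Figure D3:**
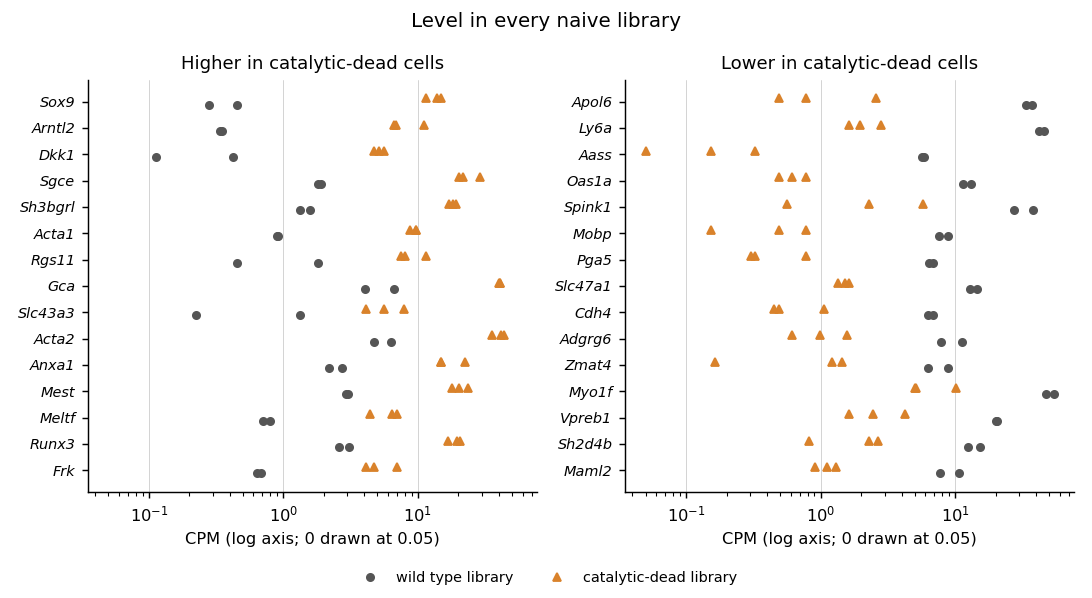
CPM (x axis, log scale) of the 15 genes with the largest tested increase (left) and the 15 with the largest tested decrease (right) in each naive library, with 2 wild-type (circles) and 3 catalytic-dead (triangles) libraries per gene. Genes were chosen for groups that do not overlap; the value of 0 for Aass in 1 library is drawn at 0.05.

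Among the genes with no test, 3982 without library values and 78 under the filter, 134 of 4060 stood 2-fold or more above wild type in catalytic-dead cells (3.30%) and 56 stood 2-fold or more below (1.38%). With means entered, 1083 of 16539 genes were higher (6.55%) and 710 lower (4.29%). Recovery of library values depended on the level in catalytic-dead cells, so near its limit a gene lower there was tested more readily than a gene higher there. Peg10, an imprinted gene derived from a retrotransposon, stood at 14.1 CPM in wild-type and 239 CPM in catalytic-dead cells, a difference of 4.09 (adjusted p = 7.75e-11 with means entered). It lies on chromosome 6 (4747306 to 4760517), beside Sgce. Dab2, an endocytic adaptor of primitive endoderm, stood at 3.45 and 49.6 CPM (3.84, adjusted p = 5.19e-09 with means entered). Slc7a8, an amino acid transporter, stood at 2.56 and 26.8 CPM, and Sohlh2, a germ cell factor, at 23.6 and 142 CPM. Ccnd2 (cyclin D2) and Reep1, both on chromosome 6, stood at 6.69 and 38.1 CPM and at 23.2 and 125 CPM.

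The largest decreases among the named genes with no test were those of Pramef12, a germline gene of the Prame family, and Fam25c. Pramef12 stood at 233 CPM in wild-type and 29.3 CPM in catalytic-dead cells, and Fam25c at 382 and 49.3 CPM. Stmn2, a regulator of microtubules in neurons, stood at 687 and 147 CPM. Spp1 (osteopontin) stood at 204 and 60.8 CPM, and Lima1, an actin-binding protein, at 331 and 101 CPM. Slc7a3, an arginine transporter, stood at 234 and 75.7 CPM, the chaperone Hspb8 at 346 and 113 CPM, and Smim40 at 155 and 52.6 CPM. Their adjusted p with means entered ran from 1.90e-07 (Pramef12) to 6.46e-04 (Slc7a3).

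The largest tested decreases were Apol6 and Ly6a on chromosome 15. Apol6, an apolipoprotein L gene that interferon induces, had 37.0 and 33.9 CPM in wild-type and 0.783, 2.59 and 0.492 CPM in catalytic-dead libraries (-4.84, SE 0.43, limma adjusted p = 2.94e-09). Ly6a (stem cell antigen 1) had 41.8 and 45.7 CPM against 2.79, 1.98 and 1.64 CPM (-4.26, SE 0.32, adjusted p = 1.31e-10). Aass, an enzyme of lysine breakdown, had 5.69 and 5.88 CPM against 0, 0.152 and 0.328 CPM (-4.14, adjusted p = 2.11e-07) and fell although it lies on chromosome 6. Myo1f, an unconventional myosin, had 47.5 and 54.4 CPM against 10.2, 5.02 and 5.09 CPM (-2.95, adjusted p = 8.60e-08). Slc47a1, an organic cation transporter, stood at 14.0 and 1.701 CPM (-3.04), and Spink1, a trypsin inhibitor, at 32.3 and 2.24 CPM (-3.85). The other large decreases were in Oas1a, Mobp, Pga5, Cdh4, Adgrg6, Zmat4, Vpreb1, Sh2d4b and Maml2, down to a size of -2.82, and all 15 kept their call under every alternative that tested them.

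For some of these genes the floxed level was close to the catalytic-dead level, and for others it lay between that and the wild-type level. On the log2 scale the floxed level lay nearer the catalytic-dead than the wild-type level for 8 of the 15 largest decreases (Apol6, Ly6a, Aass, Spink1, Mobp, Pga5, Adgrg6 and Maml2), and for 1 of the 15 largest increases (Sh3bgrl). Ly6a stood at 1.995 CPM in naive floxed and 1.80 CPM in naive knockout cells, beside 43.9 CPM in wild-type and 2.29 CPM in catalytic-dead cells. Aass stood at 0.602 CPM and Adgrg6 at 1.3 CPM in floxed cells. Apol6 lay between, at 5.97 CPM in floxed and 1.24 CPM in catalytic-dead cells, and so did Maml2, at 3.25 and 1.31 CPM. By contrast Myo1f stood at 86.5 CPM in floxed and 3.74 CPM in knockout cells, Zmat4 at 14.2 and 0.894 CPM, and Sh2d4b at 10.96 and 1.74 CPM. The floxed line differs from wild type by its genotype and may differ by its line, which cannot be told apart.

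Over 6 lists (the MLL3/4 complex, other H3K4 methyltransferases, H3K4 demethylases, enhancer coactivators, Polycomb and DNA methylation) 62 genes were measured, most too abundant for a test. Of the 19 tested, limma called 0, beside 6.51% higher and 5.0% lower of all tested genes. An unadjusted p under 0.05 was seen for 4 of the 19, and voom called 1. The H3K27 demethylase gene Kdm6a stood at 29.8 and 34.9 CPM (adjusted p = 0.566) and Kmt2b, the MLL2 gene, at 38.8 and 26.4 CPM (adjusted p = 0.109, but 0.0279 with size factors). Of the 4 tested H3K4 methyltransferase genes 1 was lower with size factors, and 1 without catalytic-dead library a. With means entered 4 of the 62 passed. These were Dnmt3l, a cofactor of the de novo DNA methyltransferases, at 525 and 218 CPM (adjusted p = 0.00305), and the methylcytosine dioxygenase gene Tet2, at 115 and 204 CPM (adjusted p = 0.0136). The other 2 were the Polycomb genes Pcgf6, at 32.2 and 53.8 CPM, and Ezh2, which lies on chromosome 6, at 211 and 404 CPM.

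Naive pluripotency genes moved in both directions. Of 20 measured genes 6 could be tested and 1 of them was lower, beside 5.0% of all tested genes. The lower gene was Tcl1, a coactivator of AKT (chromosome 12, 105216750 to 105222793). It had 192 and 166 CPM in wild-type and 34.3, 42.5 and 46.1 CPM in catalytic-dead libraries (-2.13, SE 0.22, limma adjusted p = 7.19e-08). The median difference of the 20 genes was -0.21, beside 0.115 for all genes. Esrrb, an orphan nuclear receptor of the naive network, stood at 388 and 163 CPM (-1.25, adjusted p = 9.01e-04 with means entered), Klf2 at 545 and 299 CPM (adjusted p = 0.0309) and Nr5a2 at 141 and 81.3 CPM (adjusted p = 0.0192). Mras, a RAS-related GTPase, stood higher at 172 and 362 CPM (adjusted p = 4.69e-04). Nanog, on chromosome 6, stood at 420 and 604 CPM (adjusted p = 0.221) and Klf4 at 185 and 272 CPM (adjusted p = 0.201). Of the 12 shared pluripotency genes the 2 tested were not called by limma, voom or at an unadjusted p under 0.05, and Zfp281, a repressor of the naive state, stood at 56.7 and 111 CPM (adjusted p = 0.0108 with means entered).

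Of 12 formative genes tested 2 were higher and 1 was lower, beside 6.51% and 5.0% of all tested genes. Sox4 had 2.04 and 3.62 CPM in wild-type and 12.2, 9.43 and 11.2 CPM in catalytic-dead libraries (1.92, SE 0.35, limma adjusted p = 5.67e-04). Its call was lost without wild-type library a (adjusted p = 0.0508). The ETS factor Etv4 (0.58, adjusted p = 0.043) and the Wnt effector Lef1 (-1.73, adjusted p = 0.030) lost theirs with libraries left out. Etv4 had an adjusted p of 0.0857 to 0.155 without any 1 of the 5, and Lef1 of 0.0704 to 0.144 without wild-type library a or b or catalytic-dead library a or b. Otx2, which drives exit from the naive state, stood at 12.2 CPM in wild-type and 65.9 CPM in catalytic-dead cells (2.44, adjusted p = 1.75e-06 with means entered), against 163 and 195 CPM in the formative groups. Among formative genes that were not called, Fgf5 stood at 0.830 and 1.005 CPM (adjusted p = 0.842) and Dnmt3b at 131 and 86.9 CPM (adjusted p = 0.169 with means entered).

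Calls in the signalling lists ran in both directions, except that those of the AP-1 list and of the LIF and STAT3 list were all higher. The shares over all tested genes were 6.51% higher and 5.0% lower. Of 15 tested genes of the FGF and ERK response 2 were higher, the ERK phosphatase Dusp6 (19.5 and 38.0 CPM, adjusted p = 0.0121, but 0.107 without wild-type library a) and Phlda1 (12.7 and 23.4 CPM, adjusted p = 0.00401). The feedback inhibitor Spry2 was lower, at 76.2 and 42.5 CPM (-0.84, adjusted p = 0.0033), and so was the ligand gene Fgf3 (adjusted p = 0.0355, but 0.068 to 0.272 without any 1 library other than wild-type library b). Of 11 tested genes of the AP-1 family and its partners 4 were higher (Batf3, Atf3, Fosl2 and Bach1), beside 6.51% of all tested genes, and 1 to 3 of them with 1 library left out. Fosl2 had an adjusted p of 0.0518 to 0.206 without any 1 library, Atf3 kept its call without catalytic-dead library b alone, and Batf3 lost its call without wild-type library b (adjusted p = 0.179) or catalytic-dead library a (adjusted p = 0.0676). Bach1 had 18.3 and 19.12 CPM against 28.7, 41.2 and 36.7 CPM (0.91, adjusted p = 0.00507, but 0.0658 without wild-type library a). The list's median difference was 0.70. Of the LIF and STAT3 genes 1 of 5 tested was higher, Gadd45g (3.54 and 8.68 CPM, adjusted p = 0.00832, but 0.0655 without wild-type library a and 0.0771 without b).

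Of 11 tested Nodal, TGF-beta and BMP genes 3 were lower and 0 higher, beside 5.0% and 6.51% of all tested genes. Lefty2, a secreted inhibitor of Nodal, had 87.3 and 91.6 CPM in wild-type and 29.0, 21.0 and 18.2 CPM in catalytic-dead libraries (-1.99, SE 0.21, limma adjusted p = 2.98e-06). Lefty1 stood at 13.3 and 6.57 CPM (adjusted p = 0.0304) and Bmp4 at 7.39 and 2.67 CPM (adjusted p = 0.00743). The median difference of the 19 measured genes was 0.25, and 1 or 2 of the 3 were called with 1 library left out. Lefty1 kept its call without wild-type library a alone (0.061 to 0.25 without each other library), and Bmp4 lost its call without wild-type library a (adjusted p = 0.102) or catalytic-dead library c (adjusted p = 0.0641). Nodal itself stood at 90.9 and 87.2 CPM. Among abundant genes the BMP and TGF-beta targets Id1 (34.8 and 60.6 CPM, adjusted p = 0.0371 with means entered) and Smad7 (48.0 and 92.3 CPM, adjusted p = 0.00939) stood higher.

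Of 19 tested Wnt genes 3 were higher (Dkk1, Fzd7 and Cdx1) and 4 were lower (Notum, Lef1, Ccnd1 and Sp5), beside 6.51% and 5.0% of all tested genes. Notum, a secreted enzyme that inactivates Wnt ligands, had 6.88 and 7.01 CPM against 0.671, 2.13 and 1.48 CPM (-2.24, SE 0.52, limma adjusted p = 0.0035). Ccnd1 (cyclin D1) had 85.2 and 107 CPM against 36.8, 36.1 and 36.1 CPM (-1.39, SE 0.19, adjusted p = 4.93e-05), while Ccnd2 stood higher, as given above. Axin2, a general Wnt target, stood at 9.61 and 12.4 CPM and was not called. With 1 library left out 2 or 3 Wnt genes were higher and 2 or 3 lower, and Fzd7 lost its call without wild-type library a (adjusted p = 0.126) or b (adjusted p = 0.0826). Of the 11 tested Notch genes the ligand gene Jag1 alone was called, lower at 11.5 and 5.27 CPM (adjusted p = 0.0358, and 0.0541 to 0.137 without any 1 of the 5 libraries).

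Trophoblast genes had 5 higher and 2 lower of 13 tested, beside 6.51% and 5.0% of all tested genes, with a median difference of 0.998 over the 16 measured (0.115 over all genes). The GATA factor Gata2, on chromosome 6, had 0.983 and 2.60 CPM against 6.71, 8.06 and 7.71 CPM (2.07, adjusted p = 0.00819, but 0.201 without wild-type library a). The homeobox gene Rhox9 had 3.72 and 4.75 CPM against 15.7, 13.8 and 16.1 CPM (1.80, SE 0.29, adjusted p = 6.81e-05), and its neighbour in the same X-linked cluster, Rhox6, stood at 12.2 and 59.8 CPM with no test. Krt18 was given above, Gata3 stood at 4.54 and 8.85 CPM, and Eomes, a T-box factor of trophoblast and mesendoderm, had 6.81 and 6.45 CPM against 13.2, 23.9 and 21.5 CPM (1.49, SE 0.31, adjusted p = 0.00145). The lower genes were Phlda2 (12.4 and 4.35 CPM, adjusted p = 5.67e-04) and Ascl2 (6.92 and 2.61 CPM). With 1 library left out 3 or 4 were higher and 1 or 2 lower.

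Primitive endoderm genes had 2 higher (Krt18 and the collagen gene Col4a1) and 1 lower (the laminin gene Lama1) of 12 tested, beside Dab2. For this list and those that follow here, the shares over all tested genes were 6.51% higher and 5.0% lower. Without wild-type library a Col4a1 (adjusted p = 0.168) and Lama1 (adjusted p = 0.212) lost their calls, and Lama1 did so without catalytic-dead library c (adjusted p = 0.0601). The factors that define this lineage stayed low, with Gata6 at 0.331 and 1.28 CPM and Gata4 at 1.02 and 1.22 CPM, neither called. Of 10 mesendoderm genes Eomes was called, and T (brachyury) stood at 0.956 and 0.733 CPM. Of 13 neuroectoderm genes the neuronal tubulin gene Tubb3 was lower, with 60.9 and 61.1 CPM against 22.9, 34.1 and 27.9 CPM (-1.12, SE 0.22, adjusted p = 9.17e-04). The neural factor Sox1 was higher at 5.46 and 10.7 CPM (adjusted p = 0.0185, but 0.206 without wild-type library a and 0.0672 without catalytic-dead library b). Of 7 tested 2-cell-like genes Zscan5b was lower (4.57 and 0.591 CPM, -2.95, adjusted p = 0.00109), and Zscan4c stood at 6.44 and 3.64 CPM, not called.

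Germline and meiosis genes had 5 higher and 1 lower of 22 tested, beside 6.51% and 5.0% of all tested genes, with a median difference of 0.87 over 23 (0.115 over all genes). The germ cell helicase gene Ddx4 (Vasa) had 4.71 and 4.07 CPM against 20.9, 24.2 and 26.2 CPM (2.38, SE 0.28, limma adjusted p = 3.49e-06). Tex11, a meiotic gene on chromosome X, had 4.42 and 5.32 CPM against 16.0, 15.4 and 13.8 CPM (1.59, adjusted p = 4.05e-04). Brdt, a testis bromodomain gene, and Slc25a31, a testis ADP/ATP carrier, were higher by 1.94 and 1.78, and both calls were lost without wild-type library a (adjusted p = 0.125 and 0.0651). Piwil2 was the fifth higher gene. The lower gene was Prdm1, a repressor that specifies germ cells, at 35.7 and 15.8 CPM (adjusted p = 4.71e-04). With 1 library left out 2 to 5 were higher and 1 lower.

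Of 26 Hox genes 4 were higher and 0 lower, beside 6.51% and 5.0% of all tested genes, all at low levels. Hoxb13 stood at 1.93 and 5.40 CPM, Hoxc8 at 0.519 and 2.70 CPM and Hoxc10 at 1.63 and 4.498 CPM. Their adjusted p ran from 0.00741 to 0.0298, and without wild-type library a 0 of 26 were called (adjusted p of the 4 from 0.051 to 0.341). Without wild-type library b 1 was called, without catalytic-dead library c 2 and without b 3. The count of lower Hox genes was 0 with every library left out in turn.

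Imprinted genes, expressed from 1 parental copy, had 6 higher and 4 lower of 19 tested, beside 6.51% and 5.0% of all tested genes. With 1 library left out 4 or 5 were higher and 2 to 4 lower, the fewest (4 and 2) without wild-type library a. Sgce had 1.90 and 1.81 CPM in wild-type and 29.2, 20.2 and 21.5 CPM in catalytic-dead libraries (3.52, SE 0.47, limma adjusted p = 6.59e-06), and Mest had 3.02 and 2.94 CPM against 18.0, 23.7 and 20.3 CPM (2.70, SE 0.37, adjusted p = 5.67e-06). Both lie on chromosome 6 with Peg10. The chromosome's median was 0.615, and that of its window from 0 to 10 Mb, which holds Sgce and Peg10, was 1.25. Sgce and Mest were named for being among the largest tested increases, so values above these medians follow from that choice. The part of the chromosome-wide shift in their differences was not tested. Dlk1, a paternally expressed Notch-family ligand on chromosome 12, had 6.04 and 2.94 CPM against 23.03, 24.3 and 25.6 CPM (2.47, SE 0.32, adjusted p = 2.82e-06). Nnat, H19 and Gnas were the other higher genes. The lower genes were the growth inhibitor genes Cdkn1c, Phlda2 and Grb10, and Ascl2; Phlda2, Cdkn1c and Ascl2 share a cluster on chromosome 7. Grb10 stood at 47.9 and 22.2 CPM (adjusted p = 5.82e-04) and Cdkn1c at 3.84 and 0.896 CPM (adjusted p = 0.0325, but 0.236 without wild-type library a, 0.1 without catalytic-dead library b and 0.129 without c). Without chromosome 6, 4 of 17 were higher and 4 lower.

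**Figure D4:**
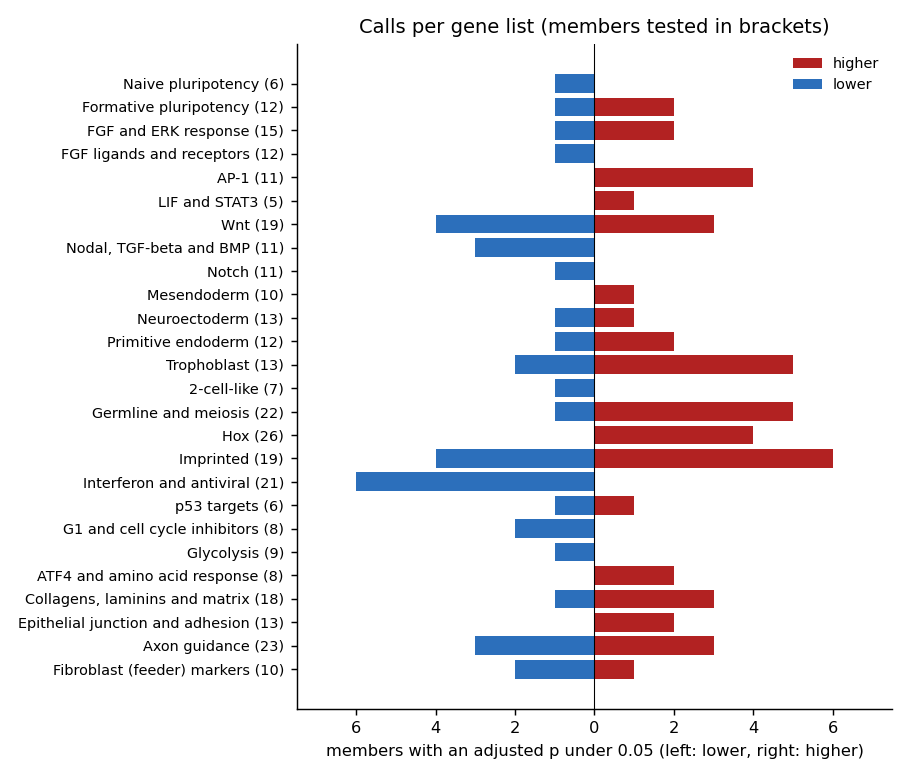
Number of members called higher (right, red) and lower (left, blue) in naive catalytic-dead cells (x axis, count of genes) for each gene list with a call, with the number of tested members in brackets. The interferon list has calls on the lower side alone (6 of 21), and the AP-1 and Hox lists on the higher side alone (4 of 11 and 4 of 26). Shares over all tested genes were 6.51% higher and 5.0% lower. The lists were chosen with earlier results of these data known.

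Interferon and antiviral genes had 6 lower and 0 higher of 21 tested, beside 5.0% lower and 6.51% higher of all tested genes. The list was chosen with earlier results of these data known and holds Apol6 and Ly6a, so its count is not independent of those results. With 1 library left out 4 or 5 were lower, and 1 was higher without catalytic-dead library a or c, and without weights. These genes are kept at a low basal level in embryonic stem cells, and many carry an interferon-stimulated response element near their start. Besides Apol6 and Ly6a, Oas1a, an enzyme that activates RNase L (chromosome 5, 120896256 to 120907521), had 11.4 and 13.1 CPM against 0.783, 0.609 and 0.492 CPM (-3.92, SE 0.45, limma adjusted p = 3.65e-07). Ddx58, the RNA sensor RIG-I, had 59.1 and 52.9 CPM against 24.1, 18.1 and 20.7 CPM (-1.42, SE 0.20, adjusted p = 1.00e-05). Irf9 stood at 27.9 and 17.7 CPM (adjusted p = 0.0372) and Ly6e at 40.6 and 23.5 CPM (adjusted p = 0.0125). Abundant members stood lower too, Ifitm1 at 330 and 131 CPM (adjusted p = 0.00133 with means entered) and Ifitm3 at 240 and 137 CPM (adjusted p = 0.0449). The regulator Stat2 (8.09 and 9.93 CPM) was not called, nor were the effector genes Isg15 (0.292 and 0.277 CPM) and Rsad2 (0.446 and 0.303 CPM). The median difference of the 25 measured genes was -0.53. In floxed cells Oas1a stood at 3.21 CPM and Ddx58 at 84.0 CPM, and in knockout cells at 0.318 and 11.2 CPM.

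Promoters from RefSeq (GRCm38.p6, 300 bases, from 250 before to 50 after a start) were matched by symbol for 11276 genes, 19 of them interferon genes. The core letters of the response element, GAAA, any 2 bases and GAAA again, read on either strand, stood in 9 of the 19, and in 2 of the 3 matched genes that were lower, Oas1a and Ddx58. Of all 11276 promoters 309 held them (2.74%). The start used lay 364 to 855 bases from the GENCODE start for H2-D1, Irf9, Psmb8, Psmb9 and Ifitm1, all without a match. An element near the GENCODE start of these genes may have been missed. The 250 bases before the start are shown for Oas1a, which was lower, and for Bst2 and B2m, which were not called (adjusted p = 0.144 and 0.203), to set the element beside both outcomes. Capitals mark the matched letters, which overlap where 2 matches share bases, and all are written 5′ to 3′ on the strand of the gene.
Oas1a (minus strand, chr5:120907526-120907775): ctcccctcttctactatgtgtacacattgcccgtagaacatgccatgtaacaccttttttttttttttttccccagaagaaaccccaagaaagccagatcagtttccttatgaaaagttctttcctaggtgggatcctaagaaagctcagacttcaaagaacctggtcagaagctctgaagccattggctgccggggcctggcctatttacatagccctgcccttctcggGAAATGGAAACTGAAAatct
Bst2 (minus strand, chr8:71537473-71537722): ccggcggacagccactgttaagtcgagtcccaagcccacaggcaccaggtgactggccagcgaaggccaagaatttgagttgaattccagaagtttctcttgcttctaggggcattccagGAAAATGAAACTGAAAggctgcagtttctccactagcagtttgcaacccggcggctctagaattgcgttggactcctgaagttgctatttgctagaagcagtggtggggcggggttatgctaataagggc
B2m (plus strand, chr2:122147437-122147686): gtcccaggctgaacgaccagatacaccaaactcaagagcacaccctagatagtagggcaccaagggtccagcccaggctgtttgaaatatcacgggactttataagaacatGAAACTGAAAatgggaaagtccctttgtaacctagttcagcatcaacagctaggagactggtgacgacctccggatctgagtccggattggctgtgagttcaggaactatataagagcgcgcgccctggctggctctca
The element of Oas1a ends 4 bases before its start, that of Bst2 114 bases and that of B2m 129 bases before it. A match describes the letters and is no measure of binding.

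Lists of cell growth and metabolism had 0 to 2 calls each, beside 6.51% higher and 5.0% lower of all tested genes. The cyclin genes differed as given above, and the kinase gene Cdk6 stood at 92.8 and 50.5 CPM (adjusted p = 0.0105 with means entered). Of 6 tested p53 targets the death receptor gene Tnfrsf10b was higher (18.1 and 32.3 CPM) and Aen lower (27.6 and 18.4 CPM). Tnfrsf10b lost its call without wild-type library a (adjusted p = 0.147), and Aen without any 1 library other than catalytic-dead library a (0.0846 to 0.149). Aldoc was the lower gene of 9 tested glycolysis genes, at 20.3 and 8.33 CPM (-1.28, adjusted p = 8.73e-04). In the ATF4 and amino acid response Chac1 (10.9 and 23.2 CPM, adjusted p = 0.00232) and Cebpb (0.968 and 3.76 CPM, adjusted p = 0.0187) were higher of 8 tested. Without wild-type library a both calls were lost (adjusted p = 0.104 and 0.218), and that of Cebpb also without wild-type library b (0.0519) or catalytic-dead library c (0.0751). Limma called 0 of 13 tested cholesterol synthesis genes (1 at an unadjusted p under 0.05, 0 by voom), 0 of 6 unfolded protein and heat shock genes (5 and 1) and 0 of 8 cytosolic ribosomal protein genes (3 and 1). The summed level of the 23 ribosomal protein genes was 29860 CPM in wild-type and 23690 CPM in catalytic-dead cells. Transcripts of the mitochondrial genome made up 2.90% of the CPM in wild-type and 3.82% in catalytic-dead cells. The largest gain was in the ribosomal RNA gene mt-Rnr2 (7170 and 12910 CPM, adjusted p = 0.286 with means entered), while ND5 stood lower (1981 and 1136 CPM, 0.128). Among 13 tested mitochondrial genes 4 were higher, all transfer RNAs, beside 6.51% of all tested genes, and 3 were higher with size factors.

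Matrix, adhesion and guidance genes completed the lists. The X-linked collagen gene Col4a5 had 0 CPM in both wild-type libraries and 1.23, 0.913 and 1.80 CPM in the catalytic-dead libraries. The tight junction gene Tjp1 (18.4 and 39.0 CPM) and the desmosomal gene Dsc2 (0.386 and 3.06 CPM) were higher and lost their calls without wild-type library a (adjusted p = 0.0617 and 0.0508), Tjp1 also without b (adjusted p = 0.0574). The laminin receptor gene Itga6 stood at 102 and 252 CPM with no test. Among 23 tested axon guidance genes 3 were higher (Robo1, Efnb1 and Plxna1) and 3 lower (Epha4, Nrp2 and Ephb2). The shares over all tested genes were 6.51% higher and 5.0% lower. Without wild-type library b Robo1 (adjusted p = 0.0504) and Efnb1 (adjusted p = 0.0764) lost their calls, and Efnb1 also without a (adjusted p = 0.055). The ephrin receptor gene Epha4 had 145 and 120 CPM against 46.3, 45.8 and 50.9 CPM (-1.47, SE 0.23, adjusted p = 9.41e-05). Vim was lower, at 115 and 121 CPM against 44.7, 42.3 and 37.1 CPM (-1.51, SE 0.18, adjusted p = 1.24e-05).

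The same comparison in formative cells, which shares no library with the naive one, called 570 higher (5.09%) and 392 lower (3.50%) of 11189 tested genes. Of the 638 genes higher in naive catalytic-dead cells that were tested in both states, 123 were higher in formative cells too (19.3%, and 22.4% of the 550 higher there), against 5.01% of all genes tested in both. Of the 511 lower in naive cells, 46 were lower in formative cells (9.0%, and 11.9% of the 388 lower there), against 3.53% of all. Without chromosome 6 the 19.3% became 15.2%, against 4.35% of all. Both comparisons are between the same 2 lines, so differences between the lines are shared by them. Sgce (3.41 and 20.1 CPM, adjusted p = 3.42e-06) and Mest (6.24 and 28.7 CPM, adjusted p = 2.29e-07) were higher in formative cells as well. Ly6a, Oas1a and Apol6 stood under 2 CPM in both formative groups.

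The difference between the 2 states was tested as an interaction, and 359 of 10979 genes passed (3.27%), 202 with a larger and 157 with a smaller value in formative cells. Runx3 was higher in naive catalytic-dead cells, as given above, and lower in formative ones, with 8.21, 9.22 and 6.64 CPM in the wild-type and 1.86, 2.55 and 2.46 CPM in the catalytic-dead libraries. Its formative minus naive value was -4.37 (SE 0.47, limma adjusted p = 1.62e-07). Eomes behaved alike, with 25.2, 15.2 and 23.9 CPM in formative wild-type and 5.44, 2.46 and 3.32 CPM in formative catalytic-dead cells (-3.98, SE 0.44, adjusted p = 1.85e-07). In both genes the order of the 2 groups was opposite in the 2 states, without overlap. Il10, an anti-inflammatory cytokine gene, stood at 0.423 and 0.418 CPM in naive cells, and had 0.288, 0.392 and 0 CPM in formative wild-type against 12.2, 13.6 and 12.4 CPM in formative catalytic-dead libraries (5.06, SE 0.83, adjusted p = 2.54e-04). Maml2, a Notch coactivator, was lower in naive catalytic-dead cells and higher in formative ones (2.69 and 6.95 CPM; interaction 4.19).

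Loss of MLL4 in MLL3-null cells, measured as naive knockout minus floxed cells and called the knockout effect, shares no library with this comparison. MLL3 is missing on both sides by the labels, so it is no measure of the loss of both proteins. It called 901 higher (8.05%) and 1051 lower (9.39%) of 11195 tested genes. Of the 495 genes lower in catalytic-dead cells that were tested in both, 210 were lower in knockout cells (42.4%, and 20.5% of the 1024 lower there), against 9.24% of all genes tested in both, and 12 were higher. Of the 671 higher genes 178 were higher in knockout cells (26.5%, and 19.9% of the 895 higher there), against 8.08% of all, and 52 were lower. Without chromosome 6 these shares were 42.4% and 27.1%. The median knockout difference was -0.80 for the lower and 0.28 for the higher genes, beside -0.02 for all. Sox9 (1.49 CPM floxed and 17.2 CPM knockout, adjusted p = 1.45e-08), Dkk1 (0.567 and 14.6 CPM, adjusted p = 8.30e-08) and Dlk1 (4.08 and 27.5 CPM, adjusted p = 1.67e-08) were higher in knockout cells too. Oas1a (adjusted p = 3.17e-06), Zmat4 (adjusted p = 6.25e-08) and Sh2d4b (adjusted p = 3.92e-06) were lower, and so were the deposited levels of Myo1f, Tcl1 and Ddx58, which had no test there.

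**Figure D5:**
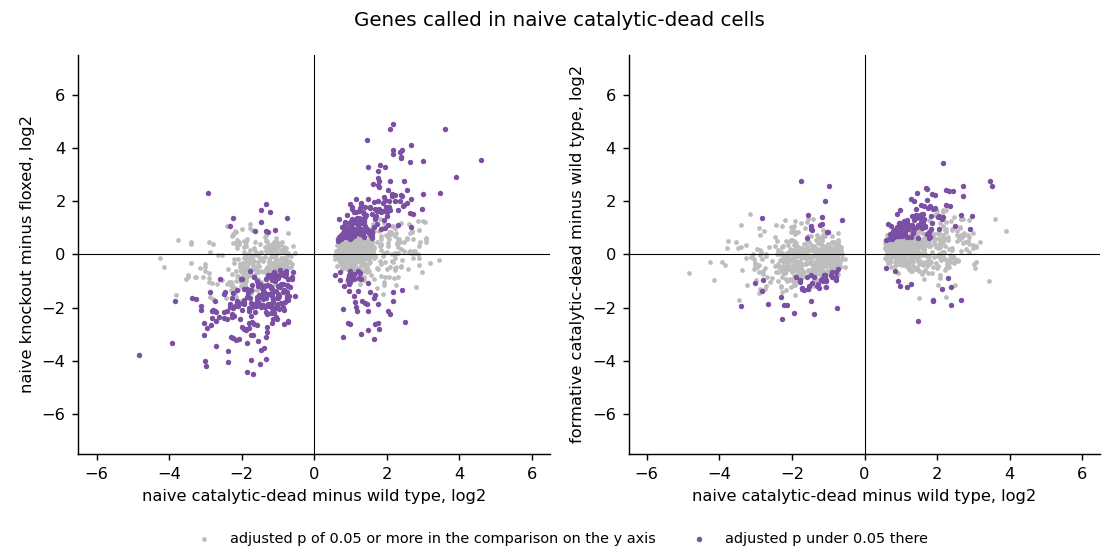
Genes called in naive catalytic-dead cells, with their difference there (x axis, log2) and their difference in naive knockout minus floxed cells (left) and in formative catalytic-dead minus wild-type cells (right, y axes, log2); purple points passed the test of the comparison on the y axis. On the left, 210 of 495 lower and 178 of 671 higher genes passed in the same direction; on the right, 46 of 511 and 123 of 638 did.

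The catalytic-dead effect differed from the knockout effect for 688 of 11077 genes (6.21%), 461 with a higher and 227 with a lower value in catalytic-dead cells. Leaving out naive wild-type library a gave 403 genes, and leaving out naive floxed library b gave 1090. With size factors 354 were higher and 340 lower, so the split rests on the scaling. In knockout minus floxed cells the genes of chromosomes 14 and 17 had medians of -0.297 and -0.335, against -0.113 to 0.136 on the other chromosomes, and the part of these chromosomes in the count was not tested. Eomes had 14.0, 10.2 and 15 CPM in floxed and 1.94, 1.42 and 1.49 CPM in knockout libraries, opposite to its increase in catalytic-dead cells (difference of effects 4.34, SE 0.50, limma adjusted p = 3.99e-07). The calmodulin-like gene Calml4 (4.83), the POU factor gene Pou2f3 (4.33) and the LIM gene Pdlim2 on chromosome 14 (4.31) had the same pattern, higher (Pou2f3 at an adjusted p of 0.0508 without wild-type library a) in catalytic-dead and lower in knockout cells. Tex13b, a testis gene on chromosome X, stood at 1.37 and 0.668 CPM in wild-type and catalytic-dead cells and at 0.530 and 17.6 CPM in floxed and knockout cells (-6.09, SE 0.83, adjusted p = 6.72e-06). Nlrp4c, an oocyte NLR gene, did likewise with 0.585 and 17.8 CPM in floxed and knockout cells (-5.98, adjusted p = 4.80e-07). Reep1, which stood higher in catalytic-dead cells, was lower in knockout than floxed cells (19.3 CPM floxed and 10.8 CPM knockout, adjusted p = 0.0032).

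The genes that differ in naive catalytic-dead cells were also read against the change of state in the floxed line, which lacks MLL3 by its label. This was formative minus naive cells, and it shares no library with the comparison. Of the 473 lower genes tested in both, 184 fell in that change (38.9%), against 11% of all genes tested in both, and 48 rose (10.1%, against 22.6%). They made up 15.6% of the 1180 genes that fell. Of the 620 higher genes 195 rose (31.5%, against 22.6% of all, and 8.04% of the 2426 that rose) and 67 fell (10.8%). The median level in naive wild-type cells was 14 CPM for genes called lower and 7.31 CPM for genes called higher. It was 3.14 CPM for tested genes that were not called. The shares here, and in the formative and knockout comparisons above, were not matched for level, and the part of level in them was not tested.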

How the data were processed

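RNA from mouse embryonic stem cells was made into libraries with a kit that reads the 3' ends of transcripts (QuantSeq FWD), per the labels' protocols. The submitters' processing notes name cutadapt 2.5, STAR, featureCounts, Subread 1.6.4, DESeq2 1.34.0 and mm10, with no role or order. No label states the strand setting of the counting, and overlapping genes on opposite strands may not be told apart. The deposited values are log2 CPM that the authors averaged within each group, for 16617 genes in 8 groups. The replicates were cultured and collected separately per the series' design, so p-values measure the spread between cultures of each line.

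From the values, a prior count of 2 was found, and the whole counts of single libraries were solved from each mean, which gave 23 libraries of 4808564 to 15425959 counts. The naive wild-type mean held 2 libraries, and 6812462 counts of the series' total belong to a library that no column holds. Of the libraries in the formative knockout mean, 1 was also in the formative catalytic-dead mean and was left out of the knockout. Libraries a, b and c are in order of falling depth. Genes whose counts were not solved in a group of the comparison (3982) and genes under the filter (78) were not tested. The filter asked for the CPM of 10 counts at the median library in at least 3 libraries.

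Log2 CPM of the recovered libraries were fitted in limma 3.58.1 (R 4.3.3) as 1 model of 8 groups, with precision weights from the trend of the spread on level and a trended prior. Benjamini-Hochberg adjusted p under 0.05 was the threshold. The procedure was tested on simulated data. The alternatives were size factors, no filter, a stricter filter of 30 counts, no weights, a prior count of 0.5, the groups of the comparison alone, voom and leaving out each library. Entering group means of abundant genes and leaving out chromosome 6 were added after seeing the data.

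Named genes were Kmt2c, Kmt2d, the 15 largest tested changes in each direction with at least 5 CPM and groups that do not overlap, and the 8 largest differences in each direction among untested genes. To these came up to 4 called and up to 4 untested members of each list, and the 5 largest in each direction of each interaction. Other list members named to complete a count or to show a level were chosen after their values were seen. The comparison and the 38 gene lists were chosen with earlier results of these data known. Promoter and start positions are from RefSeq and GENCODE vM21 (GRCm38). Some genes are not reported here by name, and counts include them.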

Additional observations from a re-analysis of the deposited data

Results flagged for a closer look

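The effect of the catalytic-dead genotype differed between formative and naive cells for 359 genes by limma's test of the difference. Each value below is the formative minus the naive effect in log2 units. It was -4.37 for Runx3, -3.98 for Eomes, -4.27 for Hoxc8 (adjusted p = 0.00128), -4.22 for the Wnt antagonist gene Frzb (adjusted p = 0.00117) and -3.72 for Psors1c2 (adjusted p = 6.22e-04). On the other side it was 5.06 for Il10, 4.27 for the myelin gene Mobp, 4.19 for Maml2, 4.14 for the neurotrophin receptor gene Ntrk2 (adjusted p = 0.00102) and 4.13 for Apol6. In formative wild-type and catalytic-dead cells Mobp stood at 0.724 and 1.04 CPM, Apol6 at 1.37 and 0.833 CPM and Hoxc8 at 1.03 and 0.277 CPM. At such levels a decrease of the naive size could not be seen for Mobp and Apol6. Frzb, Psors1c2 and Ntrk2 were not called between naive catalytic-dead and wild-type cells (limma adjusted p = 0.123, 0.780 and 0.0977), nor was Il10.

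The naive catalytic-dead effect differed from the naive knockout effect (knockout minus floxed, both MLL3-null) for 688 genes by the same kind of test. Values are the catalytic-dead minus the knockout effect in log2 units. They were 4.95 for Gc, the vitamin D binding protein gene (SE 1.14, adjusted p = 0.00526), 4.83 for Calml4, 4.34 for Eomes, 4.33 for Pou2f3 and 4.31 for Pdlim2. They were -6.09 for Tex13b, -5.98 for Nlrp4c, -4.90 for Mal, a gene of myelin and apical membranes (adjusted p = 3.31e-04), -4.30 for Mobp and -4.26 for the olfactory receptor gene Olfr316 (adjusted p = 6.43e-04). Gc, Tex13b, Nlrp4c, Mal and Olfr316 were not called between catalytic-dead and wild-type cells (limma adjusted p = 0.742, 0.333, 0.201, 0.189 and 0.977). Their values rest mainly on the floxed and knockout levels, 10.9 and 0.544 CPM for Gc, 0.607 and 6.78 CPM for Mal, and 0.289 and 5.33 CPM for Olfr316.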

How the results depend on the processing

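No paired analysis was possible because the deposited columns are group means that carry no replicate numbers. Of 127 named genes 90 were called, and 51 of them kept their call in every setting that tested them. With size factors 545 genes were higher in naive catalytic-dead cells, in place of 818, and with the groups of the comparison alone 404 were higher and 316, in place of 628, were lower. The cause was not tested. With 1 library left out the higher genes numbered 244 to 584 and the lower 325 to 577. The count of genes whose effect differed between states ran from 191 (without naive wild-type library a) to 362 with 1 library left out, and the count that differed from the knockout from 403 to 1090. With means of abundant genes entered, which tests more genes, these counts were 560 and 1163. Reversals were seen in 3 genes that were not called in naive cells. The naive difference of Il10 became 0.028 with voom and ran from -0.35 to 0.50 with 1 library left out (0.0093 without wild-type library b). That of Psors1c2 ran from -0.30 (without wild-type library b) to 0.89 with 1 library left out. That of Olfr316 became 0.47 with voom and ran from -0.37 to 0.27 (without wild-type library b) with 1 library left out, with 0.084 without catalytic-dead library a or c. Only 2 wild-type libraries stand behind every naive difference, and abundant genes have no spread between catalytic-dead libraries.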
